A study of Homo sapiens with 8 samples.

Results

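The genes described here are 40 genes of glycolysis and of the transcriptional response to low oxygen, taken as a fixed list of gene symbols, and 37 of them, of 18239 genes in the deposited table, had a probe set of their own on the array. The list holds 17 glycolytic enzymes, 3 regulators of glycolytic flux, 3 sugar or lactate transporters, 2 carbonic anhydrases, 10 other genes known to be induced by hypoxia, and 5 genes of the oxygen-sensing system itself. SLC2A3, a glucose transporter, was covered only by probe sets shared with SLC2A14, and SLC16A3, a lactate exporter, and CA9, a carbonic anhydrase, were not analysed here. EGLN3, a prolyl hydroxylase that marks HIF for destruction, lay between 3.84 and 4.22 on the log2 scale on all 8 arrays, under the filter level of 4.41, so 36 members were tested.

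The experiment asked how transcripts change when MET, a receptor tyrosine kinase for hepatocyte growth factor, is knocked down in breast cancer cells selected for growth in the brain. The groups were 231BrM cells with doxycycline, 231BrM cells without it, cells labelled SKBrM3 with doxycycline and cells labelled SKBrM3 without it, with 2 arrays each. Per the labels, the cells of all 4 groups hold a short hairpin against MET that doxycycline switches on, treated cells received 100 ng of doxycycline (no volume is given) for 48 h, and all were grown in serum-containing medium, with no change of oxygen supply named. The hairpin was present in every group, so what doxycycline does by itself and what the hairpin does cannot be told apart. The labels name no separate cultures for the replicates. The p-values therefore measure only how far arrays of one group lay apart, which may be technical.

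Glycolysis splits glucose into pyruvate, which cells reduce to lactate when mitochondria do not take it up. Hexokinases trap the sugar in the cell, the PFKFB enzymes set the level of fructose 2,6-bisphosphate that drives phosphofructokinase, and PDK1 switches off pyruvate dehydrogenase. Many of these genes are induced by the hypoxia-inducible factors, made of an oxygen-labile alpha subunit (HIF1A or EPAS1) and the stable partner ARNT. Prolyl hydroxylases such as EGLN1 and the ubiquitin ligase subunit VHL remove the alpha subunits when oxygen is plentiful.

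The hairpin's target was read first. MET was at 5.85 and 5.35 on the log2 scale in 231BrM with doxycycline, against 9.45 and 9.26 in 231BrM without it, and at 5.76 and 5.71 in the SKBrM3-labelled cells with doxycycline, against 9.26 and 9.20 without it. MET thus fell in both lines (limma adjusted p = 2.83e-05 in 231BrM and 1.31e-05 in SKBrM3). Array 1 of the 231BrM doxycycline group stood apart from the rest: its actin control probe sets had a 3′ excess over 5′ of 1.24 on the log2 scale, while the other 7 arrays had 0.46 to 0.59. Between the arrays of that group 68 genes differed over 2-fold, against 0 or 1 in each other group. Of these 68 genes, 66 were lower on array 1. Calls of members that rest on this array are therefore also given without it. Shares by unadjusted p, by sign or by separation of arrays are given only with it. The label SKBrM3 points to a line with an amplified ERBB2, but ERBB2 was not called lower in 231BrM without doxycycline (log2 difference of 231BrM minus SKBrM3 0.10, 95% interval -0.11 to 0.32). Its neighbours GRB7 and STARD3 were not called either (-0.06 and -0.07), while MIEN1, another neighbour, was lower in 231BrM (-0.73, limma adjusted p = 0.000529), as was FOXA1, a factor of luminal cells (-1.37, limma adjusted p = 0.000283). The epithelial keratins KRT19 and KRT7 were higher in 231BrM by 2.59 and 1.90 (limma adjusted p = 8.85e-07 and 1.77e-06), and SPARC, a matrix protein of mesenchymal cells, by 2.73 (limma adjusted p = 1.31e-06). The list that holds SPARC had 12 markers of mesenchymal-type breast cancer cells tested. Of these, 5 were called higher in 231BrM and 0 lower (19.8% and 19.9% of all genes). On that list LOX differed by 0.89, CAV2 by 0.63 and CAV1 by 0.55. VIM (0.14), CD44 (0.17), AXL (0.19), MSN (-0.03) and ZEB1 (-0.18) were not called between the lines. Of 15 markers tested of luminal or ERBB2-amplified cells, 4 were called lower and 6 higher in 231BrM. The second line is therefore called by its label only. Of 12 markers of fibroblasts, endothelium, leukocytes and glia, 6 passed the filter and 0 were called with doxycycline in either line.

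The promoters of 6 members are shown because the first 4 belong to members that fell with doxycycline and the other 2 to glycolytic enzymes that did not pass the test. Each line gives the 250 bases before the annotated start on the gene's own strand, from RefSeq (GRCh38.p14), and capitals mark the core of the HIF recognition element, searched as ACGTG and GCGTG on both strands, where overlapping matches merge into longer capitals and CACGTG counts once per strand. The windows are chr2:74833877-74834126 (plus strand) for HK2, chr10:6144671-6144920 (plus) for PFKFB3, chr3:48556804-48557053 (minus) for PFKFB4, chr10:73096867-73097116 (minus) for P4HA1, chr11:18394313-18394562 (plus) for LDHA and chrX:78103998-78104247 (plus) for PGK1.
HK2: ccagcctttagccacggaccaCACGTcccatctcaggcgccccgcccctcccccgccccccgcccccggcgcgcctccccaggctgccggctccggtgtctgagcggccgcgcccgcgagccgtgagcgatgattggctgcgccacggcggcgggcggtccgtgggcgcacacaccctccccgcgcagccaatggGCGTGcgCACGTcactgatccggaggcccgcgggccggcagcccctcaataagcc
PFKFB3: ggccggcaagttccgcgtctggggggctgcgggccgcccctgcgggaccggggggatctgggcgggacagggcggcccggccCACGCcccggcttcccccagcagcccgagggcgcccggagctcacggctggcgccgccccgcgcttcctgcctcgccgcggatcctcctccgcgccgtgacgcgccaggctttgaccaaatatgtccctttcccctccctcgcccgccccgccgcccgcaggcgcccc
PFKFB4: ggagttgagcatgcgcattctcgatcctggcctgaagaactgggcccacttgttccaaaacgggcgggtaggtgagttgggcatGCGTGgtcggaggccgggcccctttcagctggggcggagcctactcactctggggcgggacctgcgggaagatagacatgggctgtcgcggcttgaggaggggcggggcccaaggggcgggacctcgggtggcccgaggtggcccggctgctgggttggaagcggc
P4HA1: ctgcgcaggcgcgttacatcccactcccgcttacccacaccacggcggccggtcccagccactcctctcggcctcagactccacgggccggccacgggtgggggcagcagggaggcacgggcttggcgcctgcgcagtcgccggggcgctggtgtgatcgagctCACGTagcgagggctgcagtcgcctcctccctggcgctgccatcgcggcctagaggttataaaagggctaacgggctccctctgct
LDHA: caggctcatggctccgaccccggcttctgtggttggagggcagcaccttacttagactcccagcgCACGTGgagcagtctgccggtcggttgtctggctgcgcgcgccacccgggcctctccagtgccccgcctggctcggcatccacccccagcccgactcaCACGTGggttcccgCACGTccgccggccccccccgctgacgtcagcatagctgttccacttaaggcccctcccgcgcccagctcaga
PGK1: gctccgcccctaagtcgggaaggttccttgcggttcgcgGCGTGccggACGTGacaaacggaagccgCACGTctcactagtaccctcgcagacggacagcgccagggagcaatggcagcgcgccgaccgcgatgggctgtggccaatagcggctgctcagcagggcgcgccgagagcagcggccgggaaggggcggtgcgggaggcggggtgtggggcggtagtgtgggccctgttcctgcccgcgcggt
The core occurred 3 times before HK2, 1 time each before PFKFB3, PFKFB4 and P4HA1, 5 times before LDHA and 3 times before PGK1. The pair LDHA and PGK1 was picked after these counts were seen. RefSeq promoter windows of 300 bases, reaching 50 bases past the start, were at hand for 37 of the 40 members. Of these, 26 (70.3%) held the core, against 61.4% of the windows of genes tested and 48.4% of all windows. The core was in the windows of 4 of 4 called members that had one and of 12 of 17 glycolytic enzymes, with none found for HK1, PFKM, PFKP, TPI1 and PGAM1. Outside the enzymes, none was found for PDK1, MXI1 and P4HA2, whose changes with doxycycline were negative in both lines, or for EGLN3, ARNT and SLC16A3. No window without the core is shown. A match of letters is a description of the sequence and not a bound site.

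Averaged over both lines, doxycycline lowered 5 of the 36 members tested and raised 0: HK2, PFKFB3, PFKFB4, NDRG1 and P4HA1. Over all genes tested 2.07% were called lower and 0.969% higher in that comparison, by limma at an adjusted p under 0.05. An unadjusted p under 0.05 was reached by 18 members downward and 0 upward, against 7.28% lower and 11.7% higher of all genes. The median log2 change of the members was -0.13, against 0.03 for all genes tested.

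Within single lines fewer members were called. In 231BrM, 0 of 36 passed, with 0.162% of all genes called lower and 0 called higher, and an unadjusted p under 0.05 was reached by 8 members downward and 0 upward (3.74% and 6.15% of all genes). In the SKBrM3-labelled cells HK2 and PFKFB3 fell, where 2.28% of all genes were called lower and 1.15% higher. There, 14 members were lower at an unadjusted p under 0.05 and 1, ARNT, was higher (9.82% and 10.4% of all genes). Both doxycycline arrays lay below both control arrays for 19 members in 231BrM (12.1% of all genes), for 25 in SKBrM3 (27.2%) and for 17 in both lines (5.56%). They lay above in both lines for 1 member, LDHB, the lactate dehydrogenase subunit typical of oxidative tissues (9.48% of all genes).

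The members called on average depended on single arrays. Without array 1 of the 231BrM doxycycline group, which stands apart, 10 members were called lower and 0 higher on average (3.81% and 1.47% of all genes): the 5 above with PDK1, BNIP3, ANKRD37, VLDLR and MXI1. That fit also called 10 members lower and 0 higher in SKBrM3 (6.14% and 6.4% of all genes), and in 231BrM 1 lower, PDK1, and 0 higher (0.6% and 0.0154% of all genes). Without array 2 of that group 14 members were called on average, all lower, in a fit that called 22.2% of all genes (6.72% lower and 15.5% higher). For SKBrM3 both fits had to give the same result, since neither takes any spread from the 231BrM doxycycline group. Both fits leave the difference between the 231BrM doxycycline arrays out of the shared spread. That difference was the widest of the groups (SD over genes 0.25, against 0.12 to 0.14). In both fits the 231BrM doxycycline group is 1 array, which is assumed to vary like the arrays of the other groups. Leaving out an array of any other group cut the count instead: to 0 without control array 1 of 231BrM, control array 2 of SKBrM3 or either doxycycline array of SKBrM3, to 2 (PFKFB4 and NDRG1) without control array 2 of 231BrM, and to 1 (NDRG1) without control array 1 of SKBrM3. Those fits called between 0.754% and 1.15% of all genes, against 3.04% with all arrays. With 1 SKBrM3 array left out, 0 members were called within SKBrM3 (0.4% to 0.746% of all genes), and without either 231BrM control array 1 was, PFKFB4 (1.35% of all genes).

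**Figure D1:**
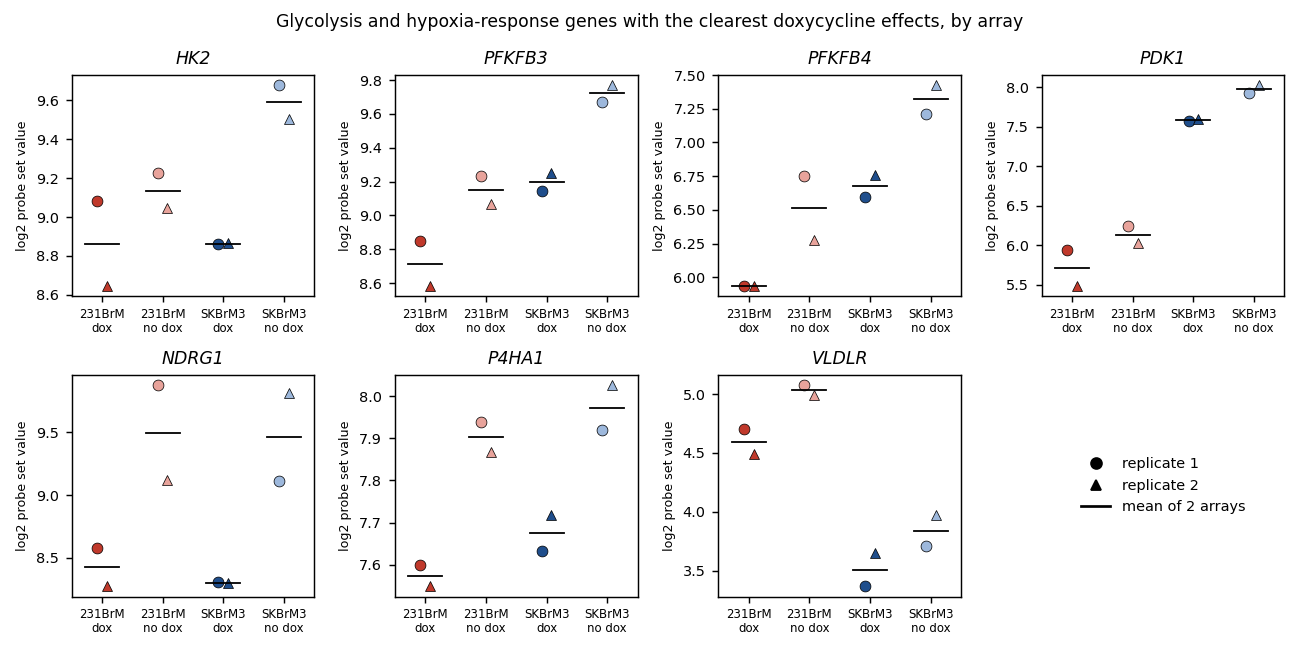
Log2 probe set value (vertical axis, own scale for each gene) of 7 members on each of the 8 arrays, with doxycycline left of no doxycycline in each line; circles are replicate 1, triangles replicate 2 and bars the mean of 2 arrays. Apart from HK2 in 231BrM, where 9.08 on replicate 1 lies above the lower control array, the doxycycline arrays of every panel lie below the controls of their line.

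Of the 3 regulators of glycolytic flux, 2 fell on average, and the median of the 3 was -0.48. PFKFB3, the bifunctional enzyme that raises fructose 2,6-bisphosphate in many tumour cells, was at 8.85 and 8.58 in 231BrM with doxycycline, against 9.24 and 9.07 without it. In SKBrM3 it was at 9.14 and 9.25 with doxycycline, against 9.67 and 9.77 without it. All doxycycline arrays lay below the controls of their line, and the log2 change was -0.44 in 231BrM (95% interval -0.69 to -0.19) and -0.53 in SKBrM3 (-0.77 to -0.28). PFKFB3 fell on average by 0.48 (SE 0.08, limma adjusted p = 0.0152). Its other 3 probe sets ranged from -0.16 to 0.13 for 231BrM and from -0.55 to -0.31 for SKBrM3. Both the size and the sign of the change in 231BrM therefore depend on the probe set.

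PFKFB4, a related bifunctional enzyme known for its induction by hypoxia, was at 5.94 on both 231BrM arrays with doxycycline, against 6.75 and 6.28 without it. In SKBrM3 it was at 6.60 and 6.76 with doxycycline, against 7.21 and 7.43 without it. No array of either doxycycline group reached a control of its line. PFKFB4 fell on average by 0.61 (SE 0.11, limma adjusted p = 0.0204), with changes of -0.58 in 231BrM and -0.64 in SKBrM3. The mean over all its probe sets gave -0.26 on average and did not pass.

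PDK1, the kinase that switches off pyruvate dehydrogenase, was at 5.94 and 5.49 in 231BrM with doxycycline, against 6.25 and 6.03 without it. In SKBrM3 the values were 7.57 and 7.59 with doxycycline, against 7.93 and 8.03 without it. The groups did not overlap in either line, and the average change was -0.41 (SE 0.10), which did not pass the test (limma adjusted p = 0.0681). Without the 231BrM doxycycline array that stands apart, PDK1 passed on average (-0.53, limma adjusted p = 0.00303) and in 231BrM (-0.65, limma adjusted p = 0.0357), where the doxycycline group is then 1 array and the spread comes from the other groups. The second PDK1 probe set gave -0.03 in 231BrM and -0.47 in SKBrM3.

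Among the 17 glycolytic enzymes, 1 was called, HK2, the inducible hexokinase of tumour and muscle cells. HK2 was at 8.86 and 8.87 in SKBrM3 with doxycycline, against 9.68 and 9.50 without it, and fell there by 0.73 (95% interval -1.05 to -0.41, limma adjusted p = 0.0294). In 231BrM it was at 9.08 and 8.64 with doxycycline, against 9.22 and 9.04 without it, a change of -0.27 that did not pass. There the doxycycline arrays overlapped with the controls, and without the array that stands apart the change was -0.49 (limma adjusted p = 0.109). On average HK2 fell by 0.50 (SE 0.10, limma adjusted p = 0.038). The change in 231BrM minus that in SKBrM3 was 0.46 (95% interval 0.00 to 0.91), which missed the adjusted threshold (limma adjusted p = 0.444). Its other probe set gave -0.15 in 231BrM and -0.76 in SKBrM3.

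The other 16 enzymes did not pass in any doxycycline comparison with all arrays, and the median average change of the 17 was -0.06, against 0.03 for all genes tested. HK1, the constitutive hexokinase, changed by -0.01 on average, and the 3 phosphofructokinase subunits PFKL, PFKM and PFKP by 0.03, 0.05 and 0.02. Enzymes of the lower pathway that are known as HIF targets had small average changes. PGK1, which makes ATP from 1,3-bisphosphoglycerate, changed by -0.10, ENO1 by -0.02, LDHA by -0.06, GAPDH by -0.05 and ENO2 by -0.19. ALDOA, an aldolase, changed by -0.13. ENO2 and ALDOA reached an unadjusted p under 0.05 by limma (7.28% of all genes lower). Both doxycycline arrays lay below both controls in both lines for GPI, ALDOA, TPI1 and PGK1 (5.56% of all genes). All 9 PGK1 probe sets were negative in both lines, from -0.18 to -0.04 in 231BrM and from -0.38 to -0.06 in SKBrM3. ALDOC, the aldolase best known from brain, changed by 0.04 in 231BrM and -0.31 in SKBrM3. The SKBrM3 change passed when either 231BrM doxycycline array was left out. Either fit leaves that group without a spread of its own, so both give the same SKBrM3 result. PKM, pyruvate kinase, had an average change of -0.38 with a wide interval (-0.81 to 0.06), since its probe set was at 8.64 and 9.51 on the 231BrM arrays with doxycycline and at 9.05 and 8.46 on those of SKBrM3. PKM was called, in 231BrM and on average, only in the fit without 231BrM doxycycline array 2, which also called ALDOC on average.

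SLC2A1, the glucose transporter GLUT1, was at 9.67 and 9.65 in 231BrM with doxycycline, against 9.93 and 9.78 without it, and at 8.74 and 8.86 in SKBrM3 with doxycycline, against 9.02 and 9.09 without it. In this probe set the groups did not overlap in either line, but the average change of -0.22 did not pass (limma adjusted p = 0.101). The 4 SLC2A1 probe sets ranged from -0.69 to 0.08 in 231BrM and from -0.25 to 0.06 in SKBrM3, with 3 negative in each line. CA12, a membrane carbonic anhydrase that handles acid outside the cell, changed by 0.09 on average (95% interval -0.17 to 0.34), and by -0.01 without the array that stands apart.

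The 10 other hypoxia-response genes had negative changes in both lines without exception, where 19.6% of all genes did, and 25 of the 36 members did. The 19.6% was not counted without the array that stands apart. In 231BrM the median change of all genes was 0.05 with that array and -0.001 without it. For the 10 genes it was -0.22 with it and -0.30 without it. Their median average change was -0.28, and 2 of the 10 passed. NDRG1, a stress-responsive gene induced by hypoxia and known as a metastasis suppressor in several cancers, was at 8.58 and 8.27 in 231BrM with doxycycline, against 9.88 and 9.12 without it. In SKBrM3 it was at 8.30 and 8.30 with doxycycline, against 9.12 and 9.81 without it. All 4 doxycycline arrays lay below all 4 controls, while replicates spread more without doxycycline: the SD was 0.22 with and 0.54 without it in 231BrM, and 0.00 with and 0.50 without it in SKBrM3 (n = 2 each). NDRG1 fell on average by 1.12 (SE 0.19, limma adjusted p = 0.0191), the lowest average change among the members, and all 6 of its probe sets were negative in both lines, from -1.88 to -1.08 in 231BrM and from -1.66 to -1.02 in SKBrM3.

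P4HA1, the catalytic subunit of collagen prolyl 4-hydroxylase, was at 7.60 and 7.55 in 231BrM with doxycycline, against 7.94 and 7.87 without it, and at 7.63 and 7.72 in SKBrM3 with doxycycline, against 7.92 and 8.03 without it. Replicates lay closer together than for NDRG1. P4HA1 fell on average by 0.31 (SE 0.06, limma adjusted p = 0.026), with changes of -0.33 and -0.30 in 231BrM and SKBrM3, and it has 1 probe set. VLDLR, a lipoprotein receptor, was at 4.70 and 4.49 in 231BrM with doxycycline, against 5.08 and 4.99 without it. In SKBrM3 it was at 3.37 and 3.65 with doxycycline, against 3.71 and 3.97 without it, all under the filter level of 4.41. Its average change of -0.38 did not pass (limma adjusted p = 0.0649), and without the array that stands apart it did (-0.44, limma adjusted p = 0.0301).

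The remaining 7 hypoxia-response genes did not pass. BNIP3 and BNIP3L, mitochondrial receptors for mitophagy, had average changes of -0.26 and -0.23, and all 6 probe sets of BNIP3L were negative in both lines. MXI1, an antagonist of MYC, had -0.27 (limma adjusted p = 0.0627), KDM3A, a histone demethylase, -0.29, and ANKRD37 -0.36 (limma adjusted p = 0.0998). P4HA2, a relative of P4HA1, had -0.20 and ADM, which encodes the vasodilator peptide adrenomedullin, -0.13. For ANKRD37 the change was -0.15 in 231BrM and -0.57 in SKBrM3, a difference that did not pass (limma adjusted p = 0.473).

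**Figure D2:**
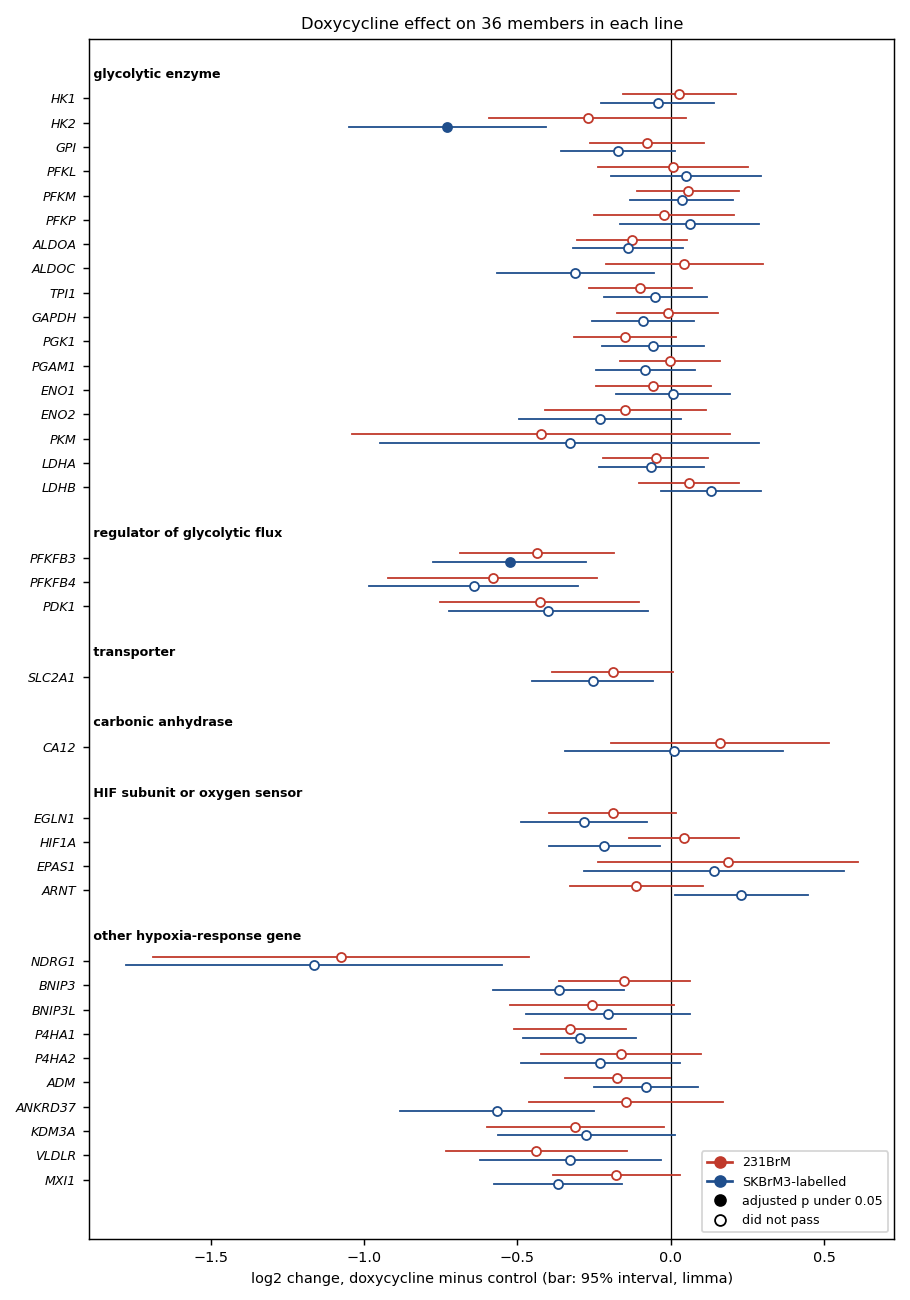
Log2 change with doxycycline minus without (horizontal axis) of the 36 members tested, 231BrM above SKBrM3 in each row, grouped by role; bars are 95% intervals from limma and filled points passed at an adjusted p under 0.05. Only HK2 and PFKFB3 in SKBrM3 are filled, most glycolytic enzymes lie near 0 and all 10 hypoxia-response genes lie left of 0 in both lines.

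The genes of the oxygen-sensing system did not pass with doxycycline. HIF1A was at 11.13 and 11.01 in 231BrM with doxycycline, against 11.06 and 10.99 without it, and at 10.71 and 10.67 in SKBrM3 with doxycycline, against 10.89 and 10.92 without it. The arrays overlapped in 231BrM and not in SKBrM3, where the change of -0.22 did not pass (limma adjusted p = 0.177). All 8 HIF1A probe sets were negative in SKBrM3, from -0.68 to -0.22, and 1 of 8 in 231BrM, from -0.03 to 0.12. In 231BrM the probe set used gave 0.04, and -0.02 without the array that stands apart, and the difference between the lines was 0.26 in the probe set used (limma adjusted p = 0.436). Transcript levels do not show the amount of HIF1A protein, which is set mainly by its degradation.

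EPAS1, which encodes HIF2 alpha, was at 7.55 and 7.04 in 231BrM with doxycycline, against 7.05 and 7.16 without it. In SKBrM3 it was at 4.92 and 4.92 with doxycycline, against 5.02 and 4.54 without it. The groups overlapped in both lines, and the average change was 0.16 (95% interval -0.14 to 0.46). ARNT, the partner of both alpha subunits, was at 5.18 and 5.21 in 231BrM with doxycycline, against 5.39 and 5.22 without it, and at 5.11 and 5.25 in SKBrM3 with doxycycline, against 4.88 and 5.02 without it. Its arrays thus lay below the controls in 231BrM and above them in SKBrM3, but the difference of -0.34 between the lines did not pass (limma adjusted p = 0.402), and of its 4 probe sets above the filter only the one used was negative in 231BrM. EGLN1, the main prolyl hydroxylase acting on HIF and itself a HIF target, changed by -0.24 on average (limma adjusted p = 0.0956), and all 3 of its probe sets were negative in both lines. Over all members the doxycycline effects of 231BrM and SKBrM3 differed at an adjusted p under 0.05 for 0 of 36, where 0.0231% of all genes did. At an unadjusted p under 0.05, HK2 and HIF1A were higher and ARNT lower in the difference of 231BrM minus SKBrM3 (6.86% and 4.31% of all genes).

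Genes of the same pathways outside the list were read alongside. Their lists were drawn up with earlier results of these data known, so they are no independent check. Of 40 further HIF targets, 36 were tested and 4 fell on average, with 0 higher (2.07% and 0.969% of all genes, and a list median of -0.08). DDIT4, an inhibitor of mTORC1 induced by hypoxia and other stresses, was at 7.98 and 8.17 in 231BrM with doxycycline, against 9.27 and 9.15 without it, and at 7.45 and 7.61 in SKBrM3 with doxycycline, against 8.46 and 8.88 without it. It was the only one of these targets called in 231BrM (-1.14, limma adjusted p = 0.0242) and fell by 1.14 in SKBrM3 too (limma adjusted p = 0.0046). BHLHE40, a transcriptional repressor of the circadian system, fell by 0.70 on average (limma adjusted p = 0.0104), with -0.17 in 231BrM and -1.23 in SKBrM3. ERRFI1, a feedback inhibitor of the EGF receptor, fell by 0.50 (limma adjusted p = 0.00696) and STC1, a secreted glycoprotein, by 0.47 (limma adjusted p = 0.0067). In SKBrM3 the 4 called targets, of 36, were DDIT4, BHLHE40, ERRFI1 and TMEM45A, a membrane protein (2.28% of all genes lower).

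Of 15 regulators of HIF, 1 was called (2.07% of all genes lower on average), VHL, which tags HIF alpha subunits for destruction. VHL was at 7.43 and 7.98 in 231BrM with doxycycline, against 8.29 and 8.46 without it, and at 8.13 and 8.15 in SKBrM3 with doxycycline, against 8.83 and 8.95 without it. No doxycycline array reached a control of its line, although the 231BrM doxycycline arrays spread widely (SD 0.39, n = 2), with the array that stands apart the lower one. VHL fell by 0.71 on average (SE 0.11, limma adjusted p = 0.0142) and by 0.75 in SKBrM3 (limma adjusted p = 0.0411). Without the array that stands apart the average was -0.57 (limma adjusted p = 0.0014), and both VHL probe sets were negative in both lines. The median of the 15 regulators was -0.03.

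**Figure D3:**
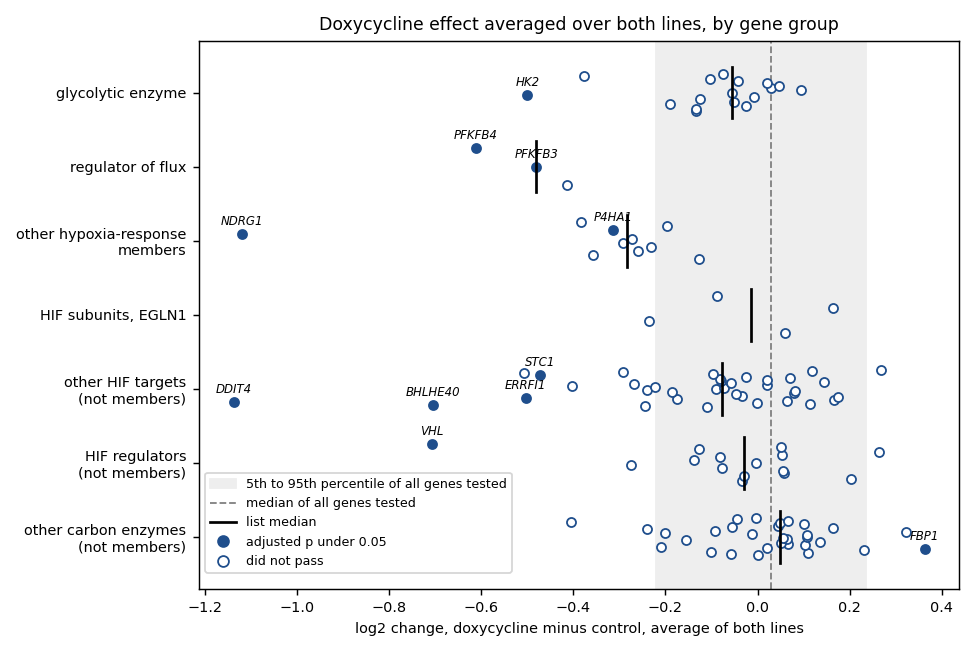
Log2 change with doxycycline minus without, averaged over both lines (horizontal axis), of each gene tested in the 4 main role groups of members and in 3 lists of genes outside the set; bars are medians, the grey band spans the 5th to 95th percentile of all genes tested and filled points passed. The median lies at -0.48 for the flux regulators, -0.28 for the other hypoxia-response members and -0.06 for the glycolytic enzymes.

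Without doxycycline, 27 of the 36 members differed between the lines, where 39.7% of all genes did: 17 were lower and 10 higher in 231BrM than in the SKBrM3-labelled cells (19.9% and 19.8% of all genes). VLDLR, among the 10, passed the filter through the 231BrM arrays alone. The lower ones included 10 glycolytic enzymes and all 3 flux regulators, and the higher ones EPAS1, ARNT and EGLN1 of the oxygen-sensing system. PDK1 had the lowest difference, -1.84 (SE 0.14, limma adjusted p = 2.82e-05), with both of its probe sets negative. Its 231BrM arrays lay below all SKBrM3 arrays with and without doxycycline. Without 231BrM control array 2, 17 members and 27.6% of all genes were called.

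CA12 was at 5.66 and 5.29 on the 231BrM control arrays, against 6.70 and 6.89 on those of SKBrM3, and at 5.83 and 5.44 in 231BrM against 6.82 and 6.79 in SKBrM3 with doxycycline. It was 2.49-fold lower in 231BrM (limma adjusted p = 0.000259). ANKRD37 was at 7.08 and 7.15 in 231BrM, against 7.79 and 8.15 in SKBrM3, and at 7.12 and 6.82 against 7.33 and 7.48 with doxycycline. Its control difference was -0.86 (limma adjusted p = 0.00143), and a second probe set lay under the filter. ALDOC was at 6.19 and 6.14 in 231BrM, against 6.69 and 6.88 in SKBrM3, and at 6.06 and 6.36 against 6.46 and 6.49 with doxycycline. All 5 ALDOC probe sets gave a lower value in 231BrM, from -1.10 to -0.62. PFKFB4 differed by -0.80 (limma adjusted p = 0.0029), and all its 3 probe sets above the filter were negative.

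In the other direction, ADM was at 11.48 on both 231BrM control arrays, against 9.40 and 9.33 on those of SKBrM3, and at 11.30 and 11.32 against 9.25 and 9.32 with doxycycline. It was 4.34-fold higher in 231BrM (limma adjusted p = 4.11e-07), with all 3 probe sets between 2.12 and 2.24. EPAS1, whose values are given above, differed by 2.33 in the probe set used (limma adjusted p = 3.33e-05), but its second probe set, at 5.29 and 5.11 in 231BrM against 5.10 and 5.32 in SKBrM3, gave -0.01. The line difference of EPAS1 therefore depends on the probe set. VLDLR differed by 1.20 (limma adjusted p = 0.000161), and its pass through the filter rested on the 231BrM arrays.

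SLC2A1 was 1.74-fold higher in 231BrM than in SKBrM3 (limma adjusted p = 0.000164), and its 4 probe sets ranged from 0.14 to 0.80. ENO1, which encodes alpha-enolase, was at 11.55 and 11.45 in 231BrM, against 10.89 and 11.00 in SKBrM3, and at 11.40 and 11.48 against 10.94 and 10.96 with doxycycline, a control difference of 0.55 (limma adjusted p = 0.000873). The neuronal enolase ENO2 differed in the opposite direction by -0.50 (limma adjusted p = 0.00871). LDHA was higher in 231BrM by 0.31 (limma adjusted p = 0.0106), while LDHB differed by -0.07 and did not pass. HIF1A differed by 0.12 (95% interval -0.06 to 0.30) and ARNT by 0.35 (limma adjusted p = 0.0176) in the probe sets used. Of the 8 HIF1A probe sets 6 were negative, from -0.42 to 0.12, and of the 4 ARNT probe sets 1 was, from -0.17 to 0.58. NDRG1 and P4HA1, which fell with doxycycline on average, were not called between the lines, with differences of 0.03 (95% interval -0.58 to 0.65) and -0.07 (-0.25 to 0.11). Of the 6 NDRG1 probe sets 5 were negative, from -0.41 to 0.03.

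**Figure D4:**
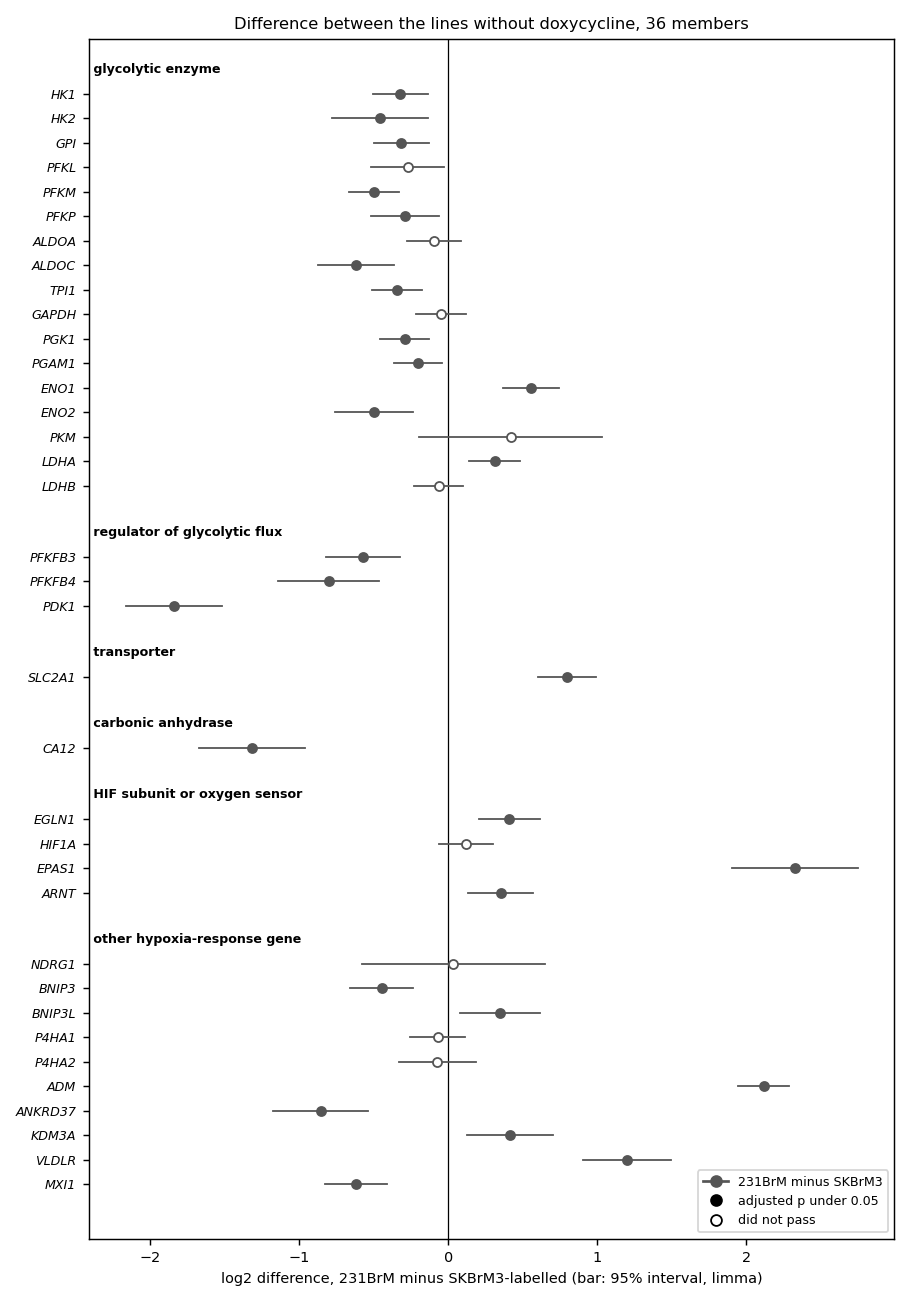
Log2 difference of 231BrM minus SKBrM3 without doxycycline (horizontal axis) of the 36 members tested, grouped by role; bars are 95% intervals from limma and filled points passed at an adjusted p under 0.05. EPAS1 (2.33) and ADM (2.12) lie farthest to the right and PDK1 (-1.84) and CA12 (-1.32) farthest to the left.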

How the data were processed

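The deposited table gives log2 values per array and probe set, which the authors made with RMA, per the submitters' processing notes. RMA corrects background, normalizes by quantiles and summarizes probes; of its version, the array definition and the build, the sources used here name none. Quantile normalization hides any change of total RNA per cell, and in such bulk samples fewer cells of a type and less RNA per cell cannot be told apart. The table held 49386 probe sets.

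Probe sets were named through the platform annotation (45253 with 1 gene, 1327 with several, 2713 unnamed), with 45172 symbols updated by gene ID through RefSeq. Each gene took its probe set with the highest mean over 8 arrays. Genes above 4.41 on 2 or more arrays (the 40th percentile of the whole table) were tested: 12999, with 5240 set aside. Limma 3.58.1 (R 4.3.3, lmFit and eBayes) fitted the 4 groups on all 8 arrays (residual degrees of freedom 4, prior 4.60). Tests were two-sided, Benjamini-Hochberg adjustment ran over the genes tested, and the call was an adjusted p under 0.05. The number of arrays limits the precision (median SE of an effect in 1 line 0.10).

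Values on every array are given for members called in a doxycycline contrast or with an unadjusted p under 0.05 in both lines, for the 5 highest and 5 lowest called line differences, and for HIF1A, EPAS1 and ARNT. From the other pathway lists, called genes are named, at most 5 per list and contrast. The members and lists were chosen with earlier results of these data known. The steps were tested on simulated data for 12999 genes. Alternatives were other probe set rules, filters, centring, array weights, an intensity trend, a replicate block, single lines and leaving out each array.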

Additional observations from a re-analysis of the deposited data

How the results depend on the processing

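No member's change that passed with all arrays changed sign under an alternative. Some changes that had not passed did, among them CA12 on average and HIF1A, PKM and PDP1 in 231BrM without the 231BrM array that stands apart. The direction of most calls over all genes did turn without 231BrM doxycycline array 2. The count of members called lower on average (5) became 12 with each array centred on its median (4.72% of all genes) and 8 with an intensity trend (4.04%), and ranged from 0 to 14 with 1 array left out. In SKBrM3 the count (2) became 9 with centring (5.12% of all genes), 11 with array weights (12.3%), 7 with an intensity trend (4.5%) and 7 from the 4 SKBrM3 arrays alone (9.59%), and ranged from 0 to 10 with 1 array left out. In 231BrM it stayed at 0 except without a 231BrM doxycycline array. For the difference between the lines it stayed at 0 except without 231BrM doxycycline array 2. These exceptions leave 1 array in that group, so their calls are not read as results about the members. Without doxycycline the count between the lines ranged from 17 to 28 with 1 array left out. Such fits have fewer arrays and fewer degrees of freedom. Those without a 231BrM doxycycline array also lose the replicate difference of that group from the shared spread. The cause of the shifts in these counts was not tested. Over all genes, the calls in SKBrM3 (446) became 1605 with array weights and 1247 from its own arrays, and those on average (395) became 614 with centring. In 231BrM (21) they became 43 with centring, 35 with an intensity trend, 11 with array weights and 1 from its own arrays. With 1 array left out they ranged from 52 to 1630 in SKBrM3, from 98 to 2887 on average and from 3 to 1650 in 231BrM. Without 231BrM doxycycline array 2 the calls were 482 lower and 1168 higher in 231BrM (21 and 0 with all arrays), and 873 lower and 2014 higher on average (269 and 126). Replicate numbers are shared between groups, but same-numbered arrays did not deviate together in every pair of groups (correlations of deviations from -0.11 to 0.24), so the numbers were not taken as pairs. With the replicate block the count was 1 (HK2) in SKBrM3 and 5 on average, and over all genes 389 and 320 were called. The mean over all probe sets gave a line difference of 1.16 for EPAS1 and called MXI1 in place of PFKFB4 on average.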

Other observations

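Of 39 further genes of sugar and carbon metabolism (other glycolytic isoenzymes, gluconeogenesis, the pentose phosphate pathway, pyruvate dehydrogenase and the citric acid cycle), 31 were tested, and the 2 called with doxycycline in any comparison, FBP1 and PDP1, were higher (against 1.15% of all genes in SKBrM3 and 0.969% on average, counts too small to set the list apart). FBP1, which runs the phosphofructokinase step backwards in gluconeogenesis, was at 6.44 and 6.26 in 231BrM with doxycycline, against 6.11 and 6.19 without it, and at 5.62 and 5.57 in SKBrM3 with doxycycline, against 4.99 and 5.14 without it. All doxycycline arrays lay above the controls of their line. FBP1 rose on average by 0.36 (SE 0.07, limma adjusted p = 0.026) and in SKBrM3 by 0.52 (limma adjusted p = 0.0236), while its 231BrM change of 0.20 did not pass. PDP1, a phosphatase that reverses the action of the pyruvate dehydrogenase kinases, was at 7.23 and 7.39 in SKBrM3 with doxycycline, against 6.87 and 6.71 without it, and rose there by 0.52 (limma adjusted p = 0.0479). In 231BrM its change of 0.13 did not pass and became -0.01 without the array that stands apart. Over the 31 genes 0 were called lower on average, 1 was called higher, and the median was 0.05, against 0.03 for all genes tested.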
